A study of Caenorhabditis elegans with 12 samples.

Results

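This account follows 2 microRNA hairpins of the nematode Caenorhabditis elegans, cel-mir-1, made in muscle, and cel-mir-60, made in the intestine, through age and an early exposure to rotenone. They were taken by name from the 250 hairpins of a table of read counts, and both were measured in all 12 small RNA libraries. Whole worms of the wild-type strain N2, all hermaphrodites, gave 4 groups of 3 libraries: day 15 after rotenone, day 15 in DMSO, day 5 after rotenone and day 5 in DMSO. Rotenone, an inhibitor of mitochondrial complex I, was given at 100 nM for 24 hours from the L4 larval stage, and controls had 0.1% DMSO, the solvent. The labels do not say whether days count from hatching or from adulthood, whether rotenone worms also had solvent, or whether the libraries of a group came from separate cultures. The p-values therefore measure the spread between these libraries, which may be technical. In the tests of single hairpins that spread is estimated in part from the other hairpins.

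A microRNA is cut from a hairpin precursor, is loaded into an Argonaute protein and lowers the output of messenger RNAs that pair with its seed, the bases near its 5′ end. The microRNA mir-1 is conserved from worms to humans and is made in muscle. In the worm it acts in body-wall and pharyngeal muscle, where it tunes acetylcholine receptor subunits and the transcription factor MEF-2 at the neuromuscular junction. The microRNA mir-60 is made in the intestine, and worms that lack it have been reported to live longer under mild oxidative stress. In whole-worm RNA, fewer cells of a tissue and less of its RNA per cell cannot be told apart. Levels here are also relative to the other hairpins of a library, so a lower level need not be a lower amount.

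Both loci stand alone in the WBcel235 annotation. The mir-1 hairpin is annotated at 6172662 to 6172757 on the minus strand of chromosome I, between the protein-coding genes T09B4.4 and T09B4.3, which lie 4019 and 2437 bases away. Its nearest microRNA neighbour is mir-235, 10274 bases away on the same strand. The mir-60 hairpin lies at 6328702 to 6328799 on the minus strand of chromosome II, 1346 bases from sma-6, a receptor gene of the worm TGF-beta pathway, and 1038 bases from set-4. Each hairpin lies outside protein-coding genes, but over an annotated non-coding RNA on the opposite strand, T09B4.14 at mir-1 and C32D5.15 at mir-60. The strand rule of the deposited counting is not given in the sources used here, so reads from those antisense RNAs could not be separated.

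Neither hairpin was among the dominant species of the libraries. By mean share of reads mir-60 ranked 46th and mir-1 ranked 66th among the 250 hairpins. The mean level, as CPM (a hairpin's reads scaled to a fixed library total), was 1585 CPM for cel-mir-60, between mir-50 (1832 CPM) and mir-86 (1469 CPM), and 349 CPM for cel-mir-1, between lin-4 (354 CPM) and mir-79 (328 CPM). Within groups, mir-60 ranked 49th in both day 15 groups and 42nd in both day 5 groups, while mir-1 ranked 79th and 80th at day 15 after rotenone and in DMSO, and 62nd and 58th at day 5. Library totals ranged from 4215830 to 5856949 reads at day 15 after rotenone and from 4727531 to 5989717 at day 15 in DMSO. At day 5 they ranged from 8891063 to 11045174 after rotenone and from 8845726 to 10481528 in DMSO, so depth moved with age and its part in the age differences was not tested.

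Both hairpins were lower at day 15 than at day 5. The muscle hairpin cel-mir-1 had 212, 210 and 208 CPM at day 15 after rotenone, against 463, 407 and 493 CPM at day 5 after rotenone. In DMSO it had 197, 224 and 181 CPM at day 15, against 475, 520 and 616 CPM at day 5 (CPM scaled by TMM, which adjusts library sizes for composition). The intestinal hairpin cel-mir-60 had 989, 1057 and 1015 CPM at day 15 after rotenone, against 1912, 1871 and 2157 CPM at day 5 after rotenone. In DMSO it had 1070, 1080 and 1047 CPM at day 15, against 2102, 2309 and 2495 CPM at day 5. Every day 15 library lay below every day 5 library for both hairpins, as was the case for 35.9% of the 181 tested hairpins after rotenone and 42% in DMSO, while for both hairpins the rotenone and DMSO libraries of 1 age overlapped. Of the tested hairpins, 6.08% had no overlap between treatments at day 15 and 39.8% had none at day 5.

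**Figure D1:**
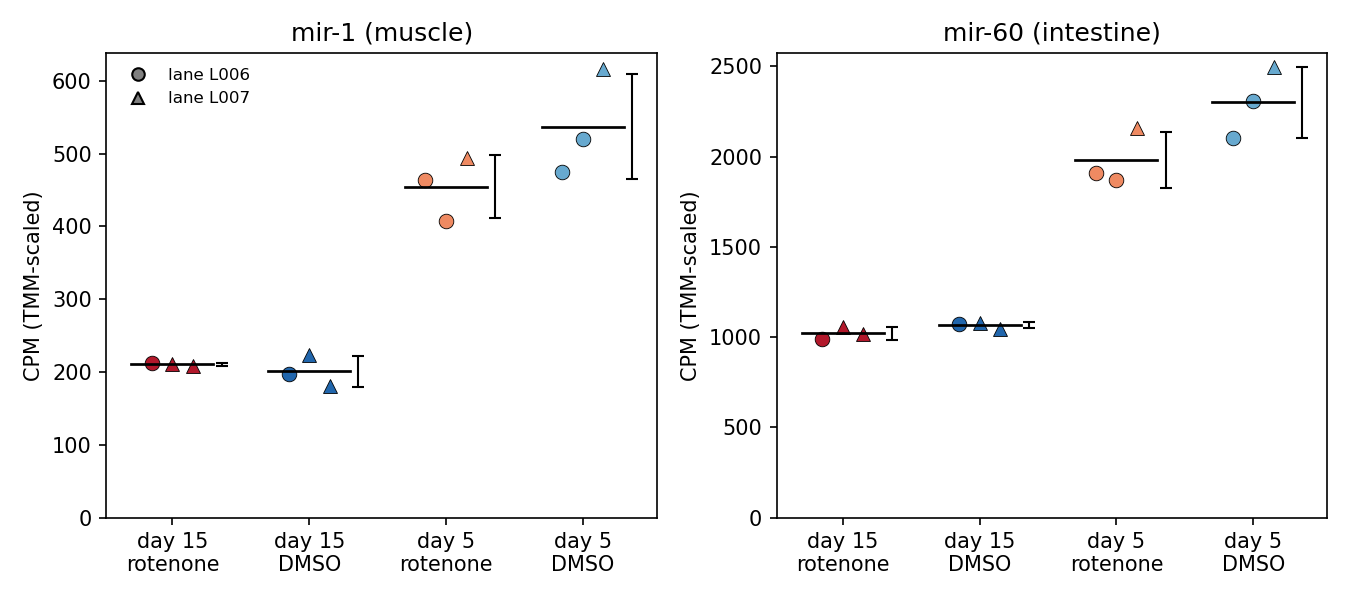
Level of mir-1 (left) and mir-60 (right) in each of the 12 libraries, in TMM-scaled CPM on linear axes that start at 0; points are libraries, circles lane L006 and triangles lane L007, horizontal lines are group means and bars 1 SD (n = 3). Day 15 libraries of mir-1 sit between 181 and 224 CPM, below all day 5 libraries (407 to 616 CPM), and those of mir-60 between 989 and 1080 CPM, below the day 5 range of 1871 to 2495 CPM.

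The spread between libraries was mostly wider than counting error. At day 5 the coefficient of variation of mir-1 was 9.58% after rotenone and 13.4% in DMSO, where the lowest count of a group carries counting errors of 1.65% and 1.44%. At day 15 it was 1.02% after rotenone, below the counting error of 3.47%, and 10.7% in DMSO. For mir-60 the coefficient of variation was 3.35% at day 15 after rotenone, 1.59% at day 15 in DMSO, 7.83% at day 5 after rotenone and 8.54% at day 5 in DMSO. In both day 5 groups the library from lane L007, the replicate 3, was the highest for both hairpins, and lane L006 held the other day 5 libraries.

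The first question was what age did to the hairpins in worms that had solvent alone. In DMSO, mir-1 averaged 201 ± 21.4 CPM at day 15 and 537 ± 72.2 CPM at day 5 (SD, n = 3 each). It fell by 1.42 ± 0.09 on the log2 scale (SE; 95% interval -1.61 to -1.23; adjusted p = 8.59e-14, edgeR quasi-likelihood test). The mean of mir-60 was 1066 ± 16.9 CPM at day 15 and 2302 ± 196 CPM at day 5, and it fell by 1.11 ± 0.07 (95% interval -1.25 to -0.97; adjusted p = 5.81e-14, edgeR quasi-likelihood test). Falls were common in this comparison: 42% of the 181 tested hairpins were called lower at an adjusted p under 0.05, 38.1% higher and 80.1% in either direction, and the median change was -0.02. The fall of mir-1 was the 15th and that of mir-60 the 30th lowest of the 181 changes.

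After rotenone, mir-1 averaged 210 ± 2.15 CPM at day 15 and 455 ± 43.6 CPM at day 5, and fell by 1.11 ± 0.09 on the log2 scale (95% interval -1.30 to -0.92; adjusted p = 1.53e-11, edgeR quasi-likelihood test). The mean of mir-60 was 1020 ± 34.2 CPM at day 15 and 1980 ± 155 CPM at day 5. It fell by 0.96 ± 0.07 (95% interval -1.10 to -0.81; adjusted p = 1.37e-12, edgeR quasi-likelihood test). Here 37.6% of hairpins were called lower, 37.6% higher and 75.1% in either direction, the median change was 0.01 (-0.14 to 0.03 over 11 scalings, filters and tools), and mir-1 and mir-60 held the 26th and 28th lowest places. Averaged over both treatments the falls were 1.26 ± 0.06 for mir-1 and 1.03 ± 0.05 for mir-60, where 43.1% of hairpins were called lower.

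Lanes were only partly balanced over age, since lane L006 held 1 of 3 libraries of each day 15 group and 2 of 3 of each day 5 group. Within lane L006 the age changes in DMSO were -1.31 for mir-1 and -1.01 for mir-60, and within lane L007 they were -1.61 and -1.24. After rotenone they were -0.95 and -0.84 within lane L006, and -1.30 and -1.12 within lane L007. The falls were present in each lane.

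**Figure D2:**
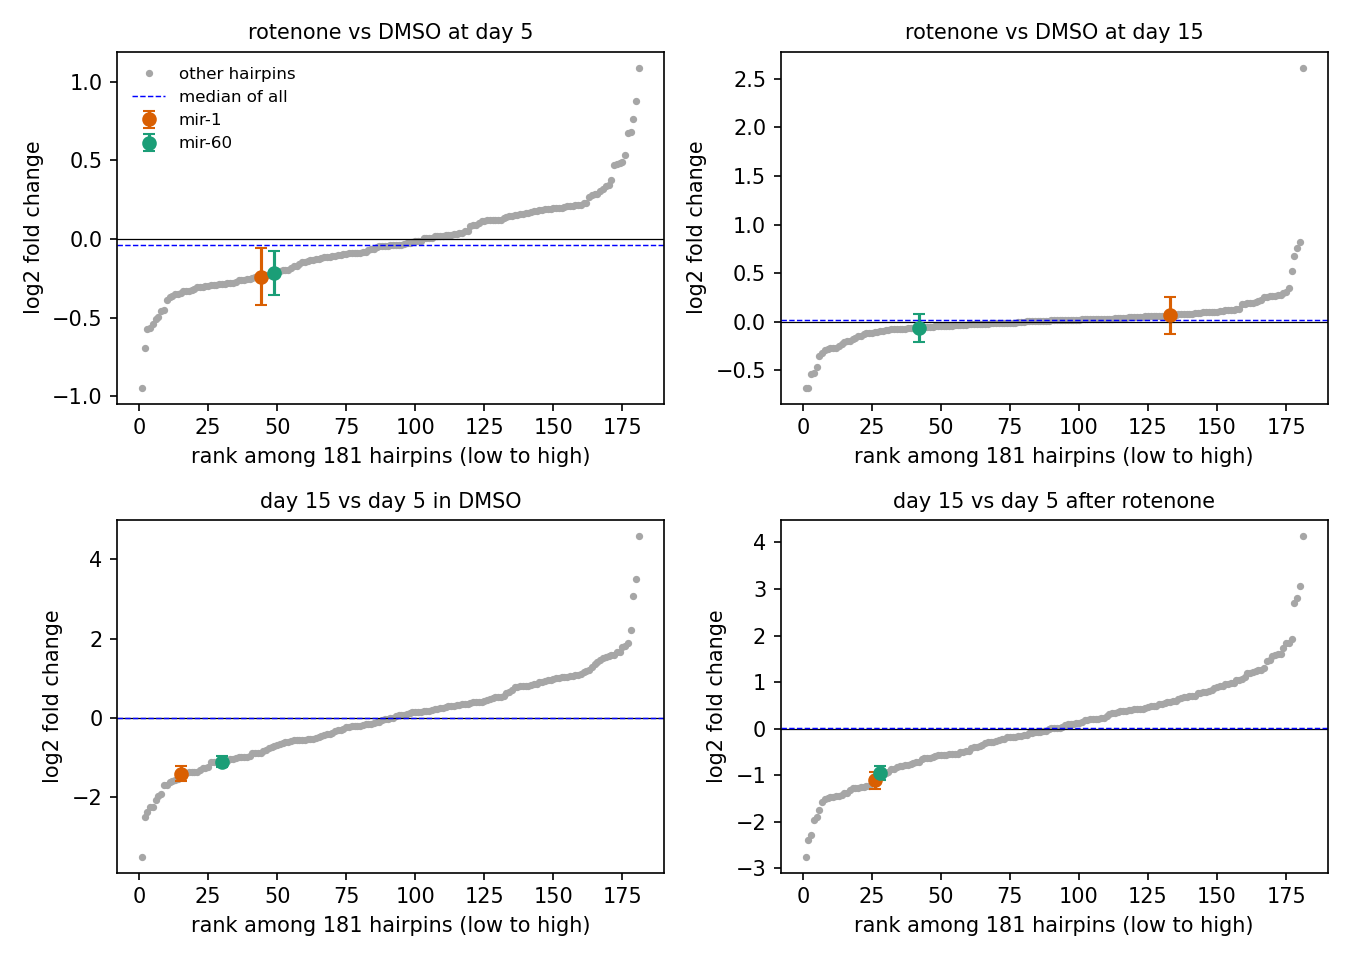
Log2 fold changes of the 181 tested hairpins, ranked from low to high, in 4 comparisons; mir-1 (orange) and mir-60 (green) have 95% intervals, the other hairpins are grey and the dashed line is the median of all. Both members lie in the lower part of the ageing comparisons (15th and 30th place in DMSO) and nearer the middle of the rotenone comparisons.

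The ratio of the members within a library does not depend on the scaling, and it asked whether they fell to the same extent. There were 21.5, 19.9 and 20.5 mir-1 reads per 100 mir-60 reads at day 15 after rotenone, against 24.2, 21.8 and 22.9 at day 5 after rotenone. In DMSO there were 18.4, 20.7 and 17.3 at day 15, against 22.6, 22.5 and 24.7 at day 5. Each day 15 library had a lower ratio than every day 5 library, the closest being 21.5 and 21.8, both after rotenone. In the means of these libraries mir-1 thus lost more of its level than mir-60 did. How often other pairs of hairpins separate by age was not computed.

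Over both treatments the log2 ratio was lower at day 15 by a mean difference of -0.23 (12 libraries; two-sided exact permutation test within treatments, p = 0.005, the smallest its 400 arrangements can give; adjusted p = 0.03 over 6 ratio comparisons). The difference was -0.15 after rotenone and -0.31 in DMSO, and each had an exact permutation p = 0.1, the smallest that 3 against 3 libraries allow (adjusted p = 0.2). With 1 library left out, which also leaves fewer arrangements, the mean difference was -0.27 to -0.20, with an adjusted exact permutation p of 0.03 to 0.09. It was -0.19 within lane L006 and -0.28 within lane L007.

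**Figure D3:**
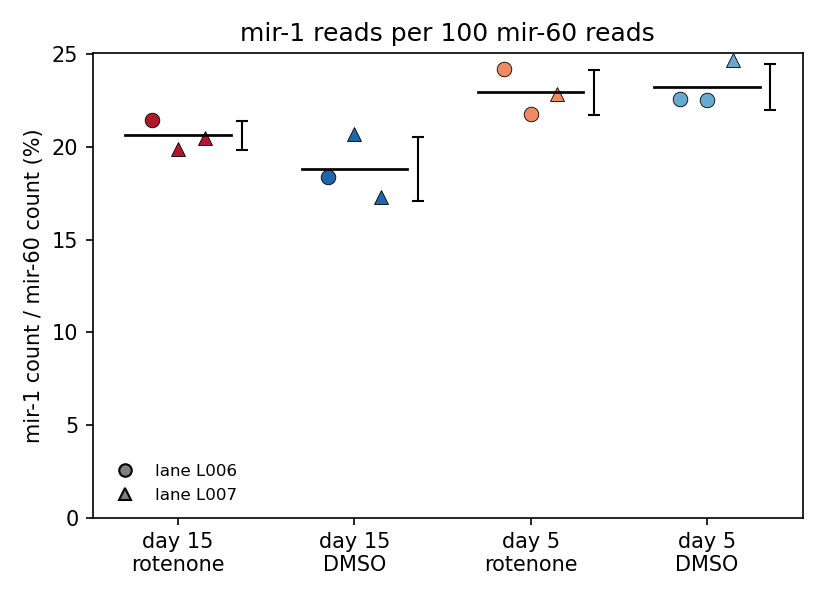
Number of mir-1 reads per 100 mir-60 reads in each library, from raw counts on an axis that starts at 0; points are libraries (circles lane L006, triangles lane L007), lines group means and bars 1 SD (n = 3). Day 15 libraries lie between 17.3 and 21.5, below the day 5 libraries at 21.8 to 24.7.

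The next question was how worms exposed to rotenone differed from solvent controls at day 5. On the TMM scale the muscle hairpin mir-1 averaged 455 ± 43.6 CPM after rotenone and 537 ± 72.2 CPM in DMSO (SD, n = 3 each), a fall by 0.24 ± 0.09 on the log2 scale (95% interval -0.42 to -0.06; adjusted p = 0.0435, edgeR quasi-likelihood test). The intestinal hairpin mir-60 averaged 1980 ± 155 CPM after rotenone and 2302 ± 196 CPM in DMSO, a fall by 0.22 ± 0.07 (95% interval -0.36 to -0.08; adjusted p = 0.0193, edgeR quasi-likelihood test). In this comparison 19.3% of hairpins were called lower, 6.08% higher and 25.4% in either direction, and the members held the 44th and 49th lowest places of 181.

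These calls did not stand under every scaling, filter and tool. With RLE size factors, another scaling, mir-60 kept its call at -0.18 (adjusted p = 0.0437, edgeR quasi-likelihood test). The change of mir-1 was then -0.20 and was not called (adjusted p = 0.0836, same test). With library size alone the changes were -0.15 for mir-1 and -0.13 for mir-60 (adjusted p = 0.256 and 0.190, edgeR quasi-likelihood test), and with a filter of 10 CPM in 3 or more libraries they were -0.06 and -0.04 (adjusted p = 0.593 and 0.646). With library size alone 17 of 181 hairpins were called lower and 23 higher, against 35 lower and 11 higher of 181 as reported. With the stricter filter, also scaled by TMM, 6 of 137 tested hairpins were called lower and 38 higher. As the scaling and the set of hairpins changed, the median of all hairpins moved between -0.04 and 0.10. Relative to that median mir-1 lay at -0.20 to -0.15 and mir-60 at -0.18 to -0.13 over 11 scalings, filters and tools. Single libraries moved this distance further, to -0.084 for mir-1 and -0.110 for mir-60 without day 5 DMSO replicate 3, to -0.116 and -0.128 without day 5 rotenone replicate 2, and to -0.280 and -0.261 without day 5 rotenone replicate 3. Within lane L007 alone it was -0.241 for mir-1 and -0.129 for mir-60. Without day 5 DMSO replicate 3 the changes themselves were -0.12 for mir-1 and -0.15 for mir-60, and 10 of 12 omissions of 1 library ended the call of mir-1 and 9 of 12 that of mir-60. Among these was the omission of any 1 day 15 library, which leaves the day 5 libraries as they were. The distance from the median was then -0.195 for mir-1 and -0.173 for mir-60.

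Within lane L006 the day 5 libraries had 463 and 407 CPM of mir-1 after rotenone, against 475 and 520 CPM in DMSO, and within lane L007 they had 493 CPM after rotenone, against 616 CPM in DMSO. For mir-60 they had 1912 and 1871 CPM after rotenone, against 2102 and 2309 CPM in DMSO in lane L006, and 2157 CPM after rotenone, against 2495 CPM in DMSO, in lane L007. Both hairpins were thus lower after rotenone in each lane, as were 34.3% of the 181 hairpins on the TMM scale. With library size alone both hairpins were again lower in each lane, as were 25.4% of all. With lane as a term the changes were -0.24 for mir-1 (adjusted p = 0.0142) and -0.22 for mir-60 (adjusted p = 0.0037) in the same edgeR model.

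**Figure D4:**
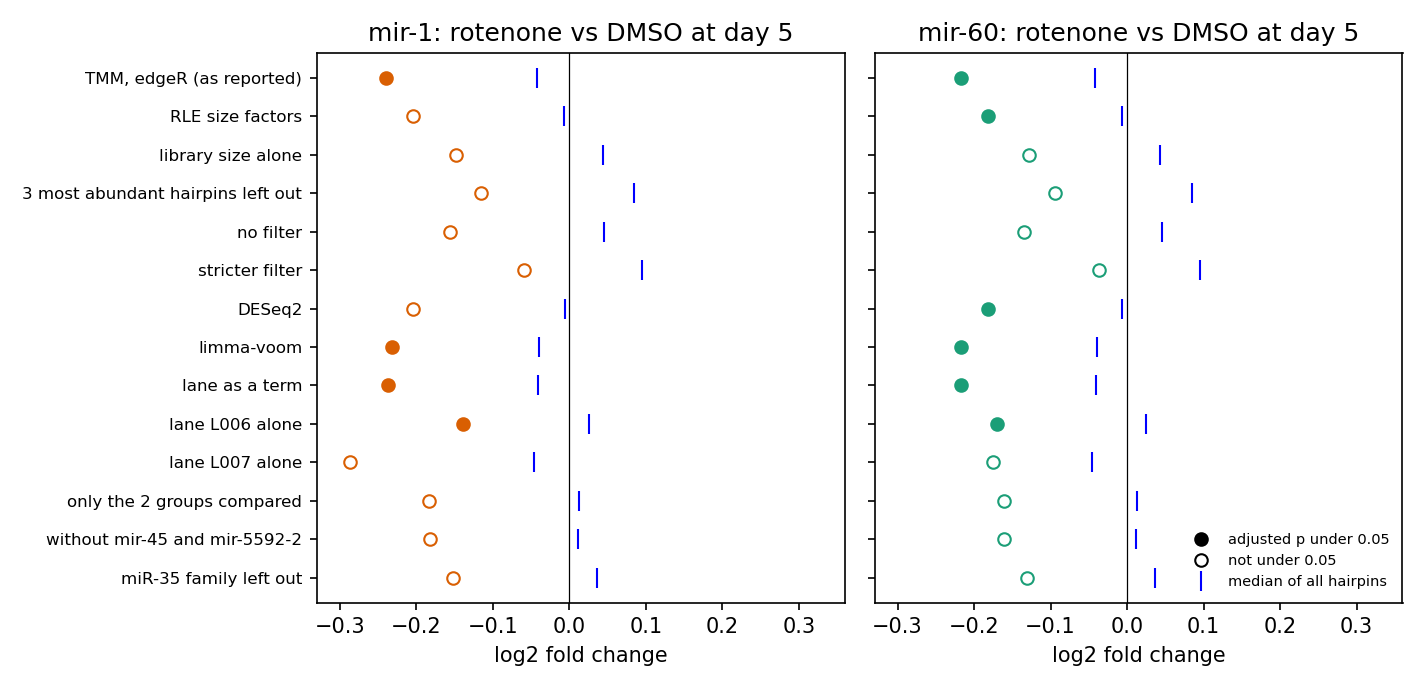
Log2 fold change of mir-1 (left) and mir-60 (right) for rotenone against DMSO at day 5 under 14 settings; filled points have an adjusted p under 0.05, open points do not, and blue ticks are the median of all tested hairpins. All points lie below 0 and to the left of their tick, from -0.29 to -0.06 for mir-1 and from -0.22 to -0.04 for mir-60.

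At day 15 the groups stood close together. The mean of mir-1 was 210 ± 2.15 CPM after rotenone and 201 ± 21.4 CPM in DMSO, a difference of 0.07 ± 0.09 on the log2 scale (95% interval -0.13 to 0.26; adjusted p = 0.968, edgeR quasi-likelihood test). For mir-60 the means were 1020 ± 34.2 CPM after rotenone and 1066 ± 16.9 CPM in DMSO, a difference of -0.06 ± 0.07 (95% interval -0.21 to 0.08; adjusted p = 0.968). No hairpin was called here by edgeR's quasi-likelihood test (0% of 181, with 3 at an unadjusted p under 0.05).

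Whether the rotenone difference itself differed between ages was tested as an interaction, which is also the difference between the age changes after rotenone and in DMSO. It was 0.31 ± 0.13 for mir-1 (95% interval 0.04 to 0.57; adjusted p = 0.136) and 0.15 ± 0.10 for mir-60 (95% interval -0.05 to 0.36; adjusted p = 0.342) in the edgeR model, where 6.63% of hairpins were called. Neither passed, and the interval of mir-1 leaves room for a difference of up to 0.57. Averaged over both ages the rotenone change was -0.09 ± 0.06 for mir-1 (adjusted p = 0.417) and -0.14 ± 0.05 for mir-60 (adjusted p = 0.0620) in the edgeR model, where 12.2% of hairpins were called. The ratio of mir-1 to mir-60 did not separate the treatments, with log2 differences of -0.02 at day 5 (exact permutation p = 0.7) and 0.14 at day 15 (exact permutation p = 0.3; adjusted p = 0.7 and 0.39).

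Levels thus followed 1 order for mir-1, with day 5 DMSO highest, then day 5 rotenone, day 15 rotenone and day 15 DMSO. For mir-60 the order was day 5 DMSO, day 5 rotenone, day 15 DMSO and day 15 rotenone. In both orders the neighbours of 1 age had overlapping libraries, and the step between the ages had none.

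Hairpins of other tissues were set beside both members. The muscle list held mir-1 alone, so hairpins of the same tissue were available for mir-60 only. In the intestine mir-240 and mir-786, neighbouring hairpins known from the worm's defecation rhythm, went the other way with age. The mean of mir-240 was 9916 ± 588 CPM at day 15 and 3269 ± 121 CPM at day 5 after rotenone, and 9978 ± 324 CPM at day 15 and 3880 ± 36.4 CPM at day 5 in DMSO. It rose by 1.60 ± 0.06 after rotenone and by 1.36 ± 0.06 in DMSO on the log2 scale. The rises of mir-786 were 1.74 ± 0.10 after rotenone and 1.51 ± 0.10 in DMSO (highest adjusted p of the 4 rises 8.61e-14, edgeR quasi-likelihood test).

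Within libraries, the count of mir-60 was 0.103 ± 0.00855 times that of mir-240 at day 15 after rotenone and 0.607 ± 0.0677 times at day 5 after rotenone. In DMSO it was 0.107 ± 0.00503 times at day 15 and 0.593 ± 0.0452 times at day 5 (SD, n = 3 each). Of the 3 intestinal hairpins 2 were called higher and 1 lower with age, beside 37.6% higher and 37.6% lower of all 181 after rotenone, and 38.1% higher and 42% lower in DMSO. Their summed share of reads was 1.09% to 1.15% at day 15 and 0.535% to 0.554% at day 5 after rotenone. In DMSO this share was 1.11% to 1.16% at day 15 and 0.596% to 0.611% at day 5. Most of the sum was mir-240, with a mean of 0.993% at day 15 and 0.334% at day 5 after rotenone. The mean share of mir-60 was 0.102% at day 15 and 0.202% at day 5 after rotenone. In DMSO the means were 1.01% and 0.374% for mir-240, and 0.108% and 0.221% for mir-60. At day 5 all 3 had lower mean levels after rotenone than in DMSO. The median change of all 181 hairpins there was -0.04 on the TMM scale, and 19.3% were called lower. The change of mir-240 was -0.25 ± 0.06 (adjusted p = 0.00431, edgeR quasi-likelihood test), called as mir-60 was. That of mir-786 was -0.21 ± 0.10 and was not called (adjusted p = 0.115, same test). In lane L007 mir-786 was higher after rotenone, at 72.5 CPM against 69.6 CPM in DMSO. The call of mir-240 ended under 4 of 25 alternatives, among them the stricter filter.

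Neuronal hairpins fell with age as the members did. All 3 of the list were called lower in both treatments, where 37.6% of the 181 hairpins were called lower after rotenone and 42% in DMSO: lsy-6, which sets the left-right difference of a taste neuron pair, by 2.75 ± 0.13 after rotenone and by 2.52 ± 0.13 in DMSO, mir-124 of sensory neurons by 0.80 ± 0.14 and 0.65 ± 0.13, and mir-791 by 1.27 ± 0.16 and 1.37 ± 0.15 (highest adjusted p 8.86e-05, edgeR quasi-likelihood test). Their summed share was 0.00415% to 0.00521% of reads at day 15 and 0.0158% to 0.0195% at day 5 after rotenone, and 0.00431% to 0.00571% at day 15 and 0.0146% to 0.0169% at day 5 in DMSO. None of the 3 was called for rotenone at day 5, where 25.4% of the 181 hairpins were called in either direction. The glial hairpin mir-228 was called lower with age by 0.28 ± 0.10 after rotenone and 0.23 ± 0.10 in DMSO, the call in DMSO ending under 13 of 25 alternatives (among them without replicate 1 or 2 of either DMSO group) and the call after rotenone without day 5 rotenone replicate 2, and mir-246 of the gonadal sheath rose by 1.21 ± 0.07 and 1.03 ± 0.07.

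The miR-35 family, made in oocytes and embryos, moved in the other direction from mir-1 and mir-60. All 8 members were called higher with age, by 0.32 to 1.31 on the log2 scale after rotenone, where 37.6% of the 181 hairpins were called higher, and by 0.48 to 1.60 in DMSO, where 38.1% were. Their summed share of reads was 16.0% to 17.2% at day 15 and 10.2% to 10.6% at day 5 after rotenone, against 15.6% to 16.9% at day 15 and 8.16% to 9.35% at day 5 in DMSO. For rotenone at day 5, 3 of 8 were called higher (mir-39, mir-41 and mir-42), against 6.08% of the 181 hairpins as reported. That share moved with the scaling and the filter (11 of 181 hairpins as reported, against 38 of 137 with the stricter filter). The call of mir-39 ended without any 1 of DMSO replicates 1 and 2 and rotenone replicates 1, 2 and 3 of day 5, and that of mir-41 without day 5 rotenone replicate 3. With the 8 hairpins left out of the fit and of the library sizes, an alternative chosen after seeing the data, mir-1 and mir-60 still fell with age, and at day 5 their rotenone changes were -0.15 and -0.13 (adjusted p = 0.248 and 0.177, edgeR quasi-likelihood test).

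**Figure D5:**
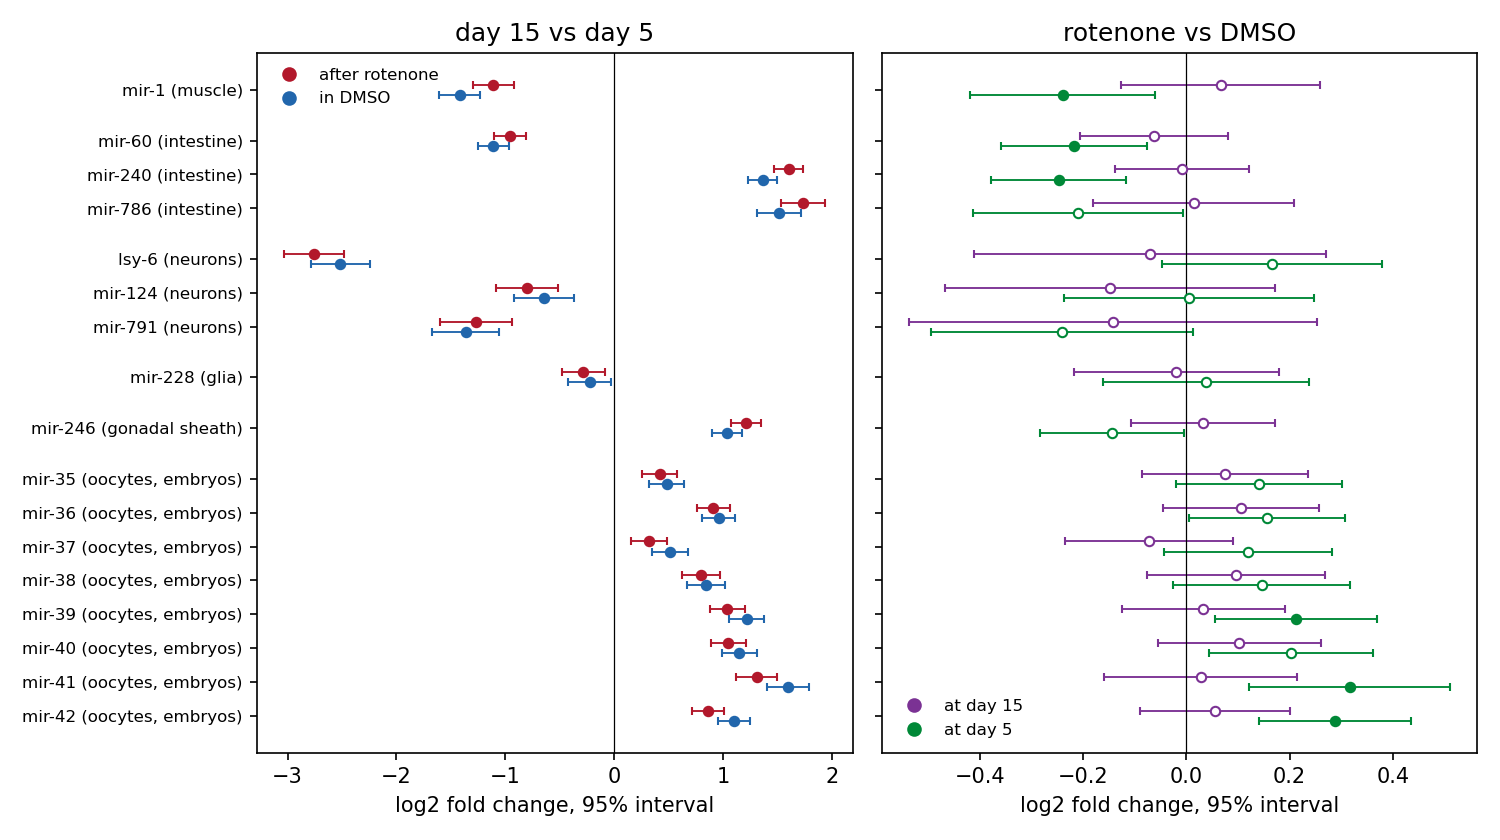
Log2 fold changes with 95% intervals for mir-1, mir-60 and 15 other tissue hairpins, for day 15 against day 5 (left; red after rotenone, blue in DMSO) and for rotenone against DMSO (right; purple at day 15, green at day 5); filled points have an adjusted p under 0.05. With age mir-1, mir-60, the 3 neuronal hairpins and mir-228 lie left of 0, and mir-240, mir-786, mir-246 and the 8 miR-35 family members right of it.

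One further hairpin of the mir-1 family, mir-796, is known to share the seed of mir-1, which was not checked against sequence here, and it was scarce. It had 40, 28 and 32 reads at day 15 after rotenone and 54, 33 and 42 at day 5, and in DMSO 41, 34 and 30 at day 15 and 39, 40 and 44 at day 5, in libraries that were shallower at day 15. Its level rose with age by 0.68 ± 0.21 after rotenone (adjusted p = 0.00527, edgeR quasi-likelihood test) and by 0.51 ± 0.21 in DMSO (adjusted p = 0.0303), the second call ending under 5 of 24 alternatives, among them without replicate 1 or 2 of day 5 DMSO or replicate 1 or 3 of day 15 DMSO. So mir-1 and mir-796 differed in direction, at 201 ± 21.4 and 6.28 ± 0.331 CPM at day 15 in DMSO, and 537 ± 72.2 and 4.47 ± 0.876 CPM at day 5 in DMSO.

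Over the 12 libraries the profile of mir-1 was closest to that of mir-60 among the 130 hairpins that averaged 10 CPM or more, by the root-mean-square difference of centred log2 CPM (0.14). The next were mir-1817 (0.16), mir-4813 (0.16), mir-253 (0.17) and mir-1830 (0.18). For mir-60 the closest were mir-47 (0.12), mir-1 (0.14), mir-63 (0.14), mir-1817 (0.15) and mir-4813 (0.15). These libraries share the 2 ages, and each of these hairpins fell with age in both treatments, so the likeness holds that step. Across the 12 libraries the log2 CPM of mir-1 and mir-60 gave Pearson's r of 0.991 and Spearman's rho of 0.895, which hold the same step.

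The close hairpins were picked over the same 12 libraries, so a likeness to the members in the day 5 rotenone change is partly built in. In that comparison 19.3% of the 181 tested hairpins were called lower. Among these close hairpins mir-253, mir-47 and mir-63 were called lower after rotenone at day 5, by 0.26 ± 0.07, 0.22 ± 0.06 and 0.39 ± 0.06 on the log2 scale (adjusted p = 0.00445, 0.0115 and 8.99e-05, edgeR quasi-likelihood test). These calls ended under 5, 7 and 1 of 25 alternatives, and that of mir-47 ended without day 5 DMSO replicate 2. The values of mir-1817, mir-1830 and mir-4813 were -0.33 ± 0.13, -0.26 ± 0.10 and 0.12 ± 0.07, and did not pass. With age in DMSO the largest fall of these 6 hairpins was that of mir-253, by 1.55 ± 0.07.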

How the data were processed

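The deposited table holds raw counts of reads per microRNA hairpin in 12 small RNA libraries (TruSeq small RNA kit, per the labels' protocols), so the arms of a hairpin cannot be told apart. Per the submitters' processing notes, the tools were BWA 0.7.12-r1039, SAMtools 1.3.1-9, Trimmomatic 0.36 and bcl2fastq 1.8.4. How reads were counted, and on which hairpin reference and build, is not given in the sources used here. Of 250 hairpins, 181 passed filterByExpr (minimum count 10). The comparisons used the quasi-likelihood F test of edgeR 4.0.16 under R 4.3.3, with TMM scaling, in a model of 4 group means (8 residual degrees of freedom), with Benjamini-Hochberg adjustment over the 181 and a threshold of 0.05. This test shares information on the spread across hairpins. Its p-values and intervals thus rest on more than those 8 degrees of freedom, the rest borrowed from other hairpins. The SE is the log2 change divided by the square root of F. Ratios of raw counts were compared by exact permutation. DESeq2 1.42.0, limma 3.58.1, other scalings and filters, lane and left-out libraries were alternatives. Counting errors cover counting alone. Pairs of libraries of a group had a chi-square per degree of freedom of 23.9 to 347 over hairpins, so none was taken for a copy. The members, the lists of tissue hairpins and the tests were chosen with earlier results of these data known. Other hairpins named are the tissue lists, the 5 closest profiles per member and the neighbours in abundance; mir-796 was named from background knowledge after its values were seen. Gene positions are those of the WBcel235 annotation, matched by name.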

Additional observations from a re-analysis of the deposited data

How the results depend on the processing

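The falls of mir-1 and mir-60 with age passed under every alternative run, in both treatments and on average. Of these fits, lane L006 alone has 1 library in each day 15 group and lane L007 alone 1 in each day 5 group, so that a lone library is assumed to vary like the other groups and the pass is no replicate check of that arm. For rotenone at day 5, mir-1 kept its direction but lost its call with RLE size factors (-0.20), library size alone (-0.15), the 3 most abundant hairpins left out (-0.12), no filter (-0.16), the stricter filter (-0.060), DESeq2 (-0.20), lane L007 alone (-0.29), only the 2 groups compared (-0.18), mir-45 and mir-5592-2 left out (-0.18) or the miR-35 family left out (-0.15). With a library left out it was -0.32 to -0.12, and 10 of 12 omissions ended the call, which stood without day 5 DMSO replicate 1 or day 5 rotenone replicate 3. The call of mir-60 ended with library size alone (-0.13), the 3 most abundant hairpins left out (-0.094), no filter (-0.13), the stricter filter (-0.037), lane L007 alone (-0.18), only the 2 groups compared (-0.16), mir-45 and mir-5592-2 left out (-0.16) or the miR-35 family left out (-0.13). It was -0.28 to -0.15 with a library left out, and 9 of 12 omissions ended it, those other than day 5 DMSO replicates 1 and 2 and day 5 rotenone replicate 3. Fits of 1 lane and of left-out libraries hold fewer samples. Without any 1 day 15 library the day 5 changes were -0.190 for mir-1 and -0.168 for mir-60. In these fits 186 hairpins were tested and their median was 0.005, against 181 and -0.042 as reported. Relative to that median mir-1 lay at -0.195 and mir-60 at -0.173, against -0.197 and -0.175 as reported. The cause of the lost calls was not tested. The interaction of mir-1 was 0.36 in lane L006 alone, past the threshold but with 1 library in each day 15 group, while that of mir-60 turned to -0.016 with the stricter filter. The day 15 value of mir-60 turned to 0.00049 in lane L006. The average rotenone change of mir-1 turned to 0.0082 with the stricter filter and 0.042 in lane L006, and that of mir-60 passed with DESeq2 (-0.13) or a lane term (-0.14), and was -0.18 to -0.091 with a library left out. The rotenone difference in the ratio was 0.026 and -0.11 in lanes L006 and L007 at day 5, -0.059 to 0.024 there with a library left out, and on average -0.0095 in lane L007. The age difference in the ratio was -0.27 to -0.20 with a library left out, past the threshold in 5 of 12 cases, and not without any 1 day 15 rotenone or day 5 DMSO library or day 5 rotenone replicate 1.

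Counts of called hairpins moved with the setting for rotenone at day 5 (46 as reported; 1 to 62), rotenone at day 15 (0; 0 to 3), the interaction (12; 0 to 38) and the average rotenone change (22; 0 to 36), and by less than 1.5 times for age. By Pearson correlation 1 of the 5 hairpins closest to mir-1 and 2 of those closest to mir-60 were among the closest 5. No paired analysis was possible because the labels give no replicate numbers: those used here follow the deposit order and pair nothing across groups.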
